A study of Mus musculus with 22 samples.

Results

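The n06.Oxt nuclei are the hypothalamic neuron nuclei to which the authors of the series gave the label n06.Oxt. The label had been projected from a published reference of hypothalamic cell types, and a nucleus kept it when the confidence of the projection was above 75%. All nuclei carrying the label in the deposited annotation were taken, which gave 301 of 24965 nuclei, or 1.21%, from 10 mice. The mice were male ob/ob mice of 11 weeks, which lack leptin and are obese and diabetic. Of these, 5 had received 3 µg of fibroblast growth factor 1 (FGF1) into a cerebral ventricle, and 5 had received vehicle and were pair-fed to the FGF1 group. Hypothalamus was taken at Day 1 from 3 FGF1 and 3 vehicle mice, and at Day 5 from 2 FGF1 and 2 vehicle mice. Every group shared the ob/ob background and there was no lean or uninjected group.

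Oxt and Avp encode the precursors of oxytocin and vasopressin, from which the hormone and its carrier protein, a neurophysin, are cut. Magnocellular neurons of the paraventricular and supraoptic nuclei make them and release them from the posterior pituitary into the blood, while smaller paraventricular neurons send them to the brainstem and spinal cord. Oxytocin is known for lactation, labour and satiety, and vasopressin for water retention and the stress response. In these neurons the transcription factors Sim1, Otp, Arnt2 and Pou3f2 act in development, prohormone convertases such as Pcsk1 cut the precursors in dense-core granules, and ion channels shape the firing that releases the hormones.

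The label was checked against its markers, and Oxt itself marked a minority of the nuclei. Oxt had at least 1 UMI (a unique molecular identifier, which counts 1 captured RNA molecule) in 74 of 301 n06.Oxt nuclei, or 24.6%, and 227 nuclei were at 0. Avp had a UMI in 63.8%, Sim1 in 75.1% and Caprin2, an RNA-binding protein known from vasopressin neurons, in 88.7%. Free RNA in the droplets can give a UMI to a nucleus that does not express a gene, and its part in these shares was not tested. Among astrocytes, which should lack both peptides, 17.7% had an Oxt UMI and 16.1% an Avp UMI, at a median of 2694 UMIs per nucleus against 3373 in n06.Oxt nuclei. Among the 19115 other neuron nuclei, at a median of 2613 UMIs, the shares were 5.02% for Oxt and 4.80% for Avp. Oligodendrocytes were at 3.56% for Oxt and 4.0% for Avp, so that types which should lack the peptides differed. The astrocyte shares came largely from FGF1 Day 1 replicate 1. Without that mouse 8.26% of astrocytes, 1.90% of other neurons and 19.0% of n06.Oxt nuclei had an Oxt UMI, and 4.52%, 1.57% and 61.2% had an Avp UMI. Avp, Sim1 and Caprin2 were thus found in most nuclei and Oxt in few, and the nuclei are called by their label without the name of a peptide. A UMI of Oxt was also not confined to them: they held 19.4% of all Oxt UMIs and 44.2% of all Avp UMIs in the table. Of the 74 nuclei of any type with 10 or more Oxt UMIs, 16 were n06.Oxt nuclei, 33 were other neurons and 21 were astrocytes. FGF1 Day 1 replicate 1 held 5, 19 and 15 of these. The study removed no doublets from the nuclei and none were removed here, and whether such nuclei were doublets was not tested.

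The 301 nuclei held 1126686 UMIs. The number of nuclei per mouse was 33, 37 and 7 in FGF1 mice and 32, 42 and 21 in vehicle mice at Day 1, and 24 and 42 in FGF1 mice and 50 and 13 in vehicle mice at Day 5. The median UMI number per n06.Oxt nucleus ranged from 2226 to 4950 between mice. Each of the 5 batches numbered in the deposited annotation held 1 FGF1 and 1 vehicle mouse. Across the 10 libraries of nuclei 318 cell barcodes occurred in 2 or more, 10 n06.Oxt nuclei carried such a barcode, and 0 barcodes were labelled n06.Oxt in 2 libraries. Summed markers of other cell types were below their own type's level in every mouse: 9 astrocyte markers reached 121 to 399 CPM (the UMIs of a gene or list scaled to 1000000 UMIs of the same nuclei) in n06.Oxt nuclei and 8309 in astrocytes, and 8 oligodendrocyte markers reached 28.5 to 283 against 2533 in oligodendrocytes. The 8 microglia, 9 tanycyte and ependymal and 10 vascular and leptomeningeal markers reached at most 114, 254 and 101 CPM, against 1075, 1611 and 1704 in their own types. The 7 oligodendrocyte precursor markers stood closest to their own type's 474 CPM, although Vcan alone held 27 of their UMIs and the other 6 had 0 to 3 each. They summed to 44.1 to 148 CPM in FGF1 mice and 6.11 to 45.0 in vehicle mice at Day 1, and to 14.3 to 28.2 in all 4 mice of Day 5, and their part in the Day 1 results was not tested. The defining markers Cldn5, Cdh5, Col1a1, Lum, Rax and Gpr17 had 0 UMIs. FGF1 Day 1 replicate 1 stood apart by its Oxt and Avp level and by 2.13% mitochondrial and ribosomal UMIs, against 0.653% to 1.21% in the other 9 mice. Several values that rest on that mouse are given with and without it.

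The profile of n06.Oxt nuclei was led by Avp, Oxt and Caprin2. These levels are a description, since the label was itself assigned from expression. Avp was 137-fold and Oxt 30.1-fold higher in n06.Oxt nuclei than in other neuron nuclei as a mean over 10 mice. Without FGF1 Day 1 replicate 1 the folds were 62.2 for Avp and 19.4 for Oxt. Avp thus stayed the leading gene without that mouse at a smaller fold, while the fold of Caprin2 changed little. Caprin2 was at 943 ± 256 CPM (SD, n = 10 mice) in n06.Oxt nuclei and 43.2 ± 7.84 in other neurons. This 21.8-fold difference was 20.8-fold without that mouse. Of the 20 leading genes, 16 were higher in n06.Oxt nuclei in each of the 10 mice, and 19 stayed among the leading 20 without FGF1 Day 1 replicate 1.

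**Figure D1:**
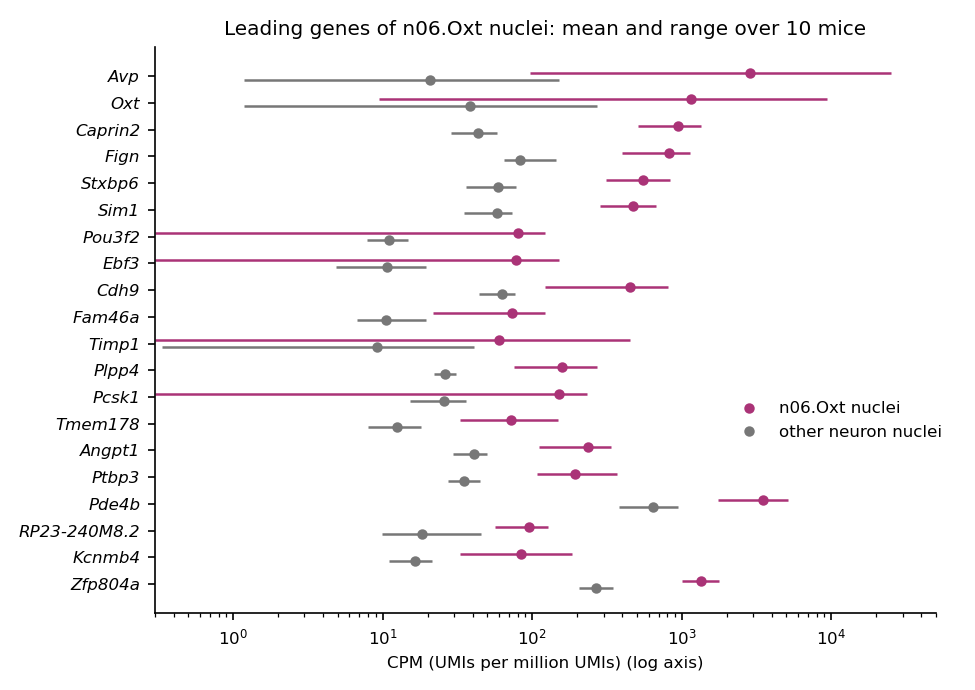
CPM (log axis) of the 20 genes with the largest fold between n06.Oxt nuclei (purple) and other neuron nuclei (grey). Points are means over 10 mice and lines run from the lowest to the highest mouse, with ranges that reach 0 drawn to the left edge. Avp and Oxt have the widest ranges, and Caprin2, Fign, Stxbp6 and Sim1 lie above the other neurons with no overlap of the ranges.

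The listed transcription factors were mostly higher than in other neurons. Sim1, a master regulator of paraventricular neurons, was at 474 ± 138 CPM in n06.Oxt nuclei and 58.2 ± 11.1 in other neurons, an 8.15-fold difference. Pou3f2 was 7.30-fold and Ebf3 7.29-fold higher. Otp was 2.83-fold higher but had a UMI in only 8.64% of nuclei, and Arnt2 was 1.93-fold higher. Of the 6 measured members of the list of magnocellular and paraventricular factors with at least 20 UMIs, 4 were 2-fold or more higher and 0 were lower, at a median log2 fold of 2.18. Across all 7911 genes with that many UMIs, 229 were 2-fold higher and 229 lower.

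Lists of other functions differed in direction. Of the members with at least 20 UMIs, 2 of 19 genes of endoplasmic reticulum folding and stress were 2-fold or more higher and 0 lower, at a median log2 fold of 0.47. Of 4 glial response genes 2 were higher and 0 lower (median 1.00), and Timp1, at 0 to 452 CPM between mice, was not among the leading 20 without FGF1 Day 1 replicate 1. By contrast, 1 of 27 synaptic adhesion genes was 2-fold or more higher and 8 were lower, at a median log2 fold of -0.51. Of 24 potassium channels 3 were higher and 3 lower (median -0.24), and of 21 sodium, calcium and other cation channels 1 was higher and 3 lower (median -0.31). Of 17 genes in the list of prohormone processing and dense-core granules 3 were higher and 1 lower (median -0.18). The RNA-binding protein Caprin2 was placed in that list and is 1 of the 3. Single genes stood out by their fold. Fign, which severs microtubules, was 9.95-fold higher, Stxbp6, which binds the fusion machinery of vesicles, 9.32-fold and the cadherin Cdh9 7.14-fold. The prohormone convertase Pcsk1 was 5.85-fold higher, while the related Pcsk2 was 0.757 times the level of other neurons. The granule proteins Scg2 and Chgb were at 0.489 and 0.578 times that level. Pdyn, the precursor of dynorphin, which vasopressin neurons are known to co-release, was 5.37-fold higher at a low level of 31.3 CPM. Kcnmb4, an accessory subunit of the large-conductance calcium-activated potassium channel, was 5.17-fold higher, and the potassium channel Kcnh1 was 5.01-fold higher, just outside the leading 20, whose last member Zfp804a was at 5.03-fold. Ern1, a sensor of unfolded proteins, was 3.96-fold higher.

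Of 11 co-released and other neuropeptides with at least 20 UMIs, 6 were 2-fold or more lower than in other neurons and 1 was higher, at a median log2 fold of -1.22. Agrp and Npy, of arcuate hunger neurons, were at 0.198 and 0.153 times the level of other neurons, and the somatostatin gene Sst was at 0.192 times. The GABA-synthesis gene Gad2 was at 0.336 times and the glutamate transporter gene Slc17a6 at 0.881 times the level of other neurons. Among receptors for FGF, Fgfr2 was at 399 ± 68.2 CPM against 383 ± 65.4 in other neurons, and Fgfr1 was at 18.6 ± 17.6 against 46.2 ± 9.70, lower in each of the 10 mice.

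The label was set by a threshold on the confidence. A further 99 nuclei had n06.Oxt as their projected label and were not kept. Nuclei of this kind were not taken out of the other neurons. The lowest confidence kept was 0.752 and the highest not kept was 0.749. The 30 nuclei just inside had 469 CPM of Caprin2 and 315 of Sim1, and the 30 just outside had 581 and 416. For the peptides the order was the other way, with 3016 CPM of Oxt and 931 of Avp just inside and 238 and 258 just outside.

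Oxt and Avp lie side by side on chromosome 2 and point towards each other. In the GENCODE annotation of GRCm38 Oxt spans chr2:130576173-130577054 on the plus strand and Avp chr2:130580620-130582554 on the minus strand, with 3565 bases between them. The 2 genes share a nearly identical middle exon, which encodes most of neurophysin, so reads from it may fit both genes. The longest stretch their GENCODE transcripts share is 127 bases, at positions 156 to 282 of 537 in Oxt and 144 to 270 of 577 in Avp, and it is shown here because a read that lies wholly within it fits both genes. It ends 255 bases before the end of the Oxt transcript and 307 before that of Avp, and where the reads fell was not tested.

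shared stretch: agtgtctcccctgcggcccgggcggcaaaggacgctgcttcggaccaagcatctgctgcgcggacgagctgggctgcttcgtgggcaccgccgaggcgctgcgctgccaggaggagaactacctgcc

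The start sites are shown because these neighbouring genes had their high counts in different nuclei. Each sequence runs from 250 bases before to 50 bases from the RefSeq start (GRCm38.p6), which differs by some bases from the GENCODE start given before, and capitals mark matches on either strand to AGGTCA, a half-site of nuclear receptors, and to ACGTG, the core of sites for some bHLH-PAS factors such as the Sim1 and Arnt2 pair.

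Oxt, chr2:130575919-130576218, plus strand: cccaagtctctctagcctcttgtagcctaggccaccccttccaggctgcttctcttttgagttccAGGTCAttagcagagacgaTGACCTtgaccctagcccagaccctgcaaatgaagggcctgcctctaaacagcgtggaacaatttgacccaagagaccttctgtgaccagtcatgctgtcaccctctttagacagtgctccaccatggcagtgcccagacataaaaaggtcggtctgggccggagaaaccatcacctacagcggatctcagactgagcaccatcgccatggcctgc

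Avp, chr2:130582539-130582838, minus strand: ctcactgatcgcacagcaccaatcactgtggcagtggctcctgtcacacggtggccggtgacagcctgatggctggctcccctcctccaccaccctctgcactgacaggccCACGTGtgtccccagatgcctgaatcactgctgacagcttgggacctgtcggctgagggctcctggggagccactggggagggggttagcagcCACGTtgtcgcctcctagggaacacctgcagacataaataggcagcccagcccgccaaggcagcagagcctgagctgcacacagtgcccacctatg

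The Oxt window held 2 matches to AGGTCA, beginning 185 and 166 bases before the start, and 0 to ACGTG. The Avp window held 0 matches to AGGTCA and 3 to ACGTG, at 139, 138 and 46 bases before the start, of which the first 2 overlap as both strands of CACGTG. Such matches are common: 16.3% of 32851 mouse promoter windows of the same length held AGGTCA and 19.6% held ACGTG. The motif TGACG, a half-site of cAMP response elements, had 0 matches in either window and occurred in 20.8% of all windows. The matches describe letters only and no binding was measured.

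Within the n06.Oxt nuclei, high Oxt and high Avp fell in different nuclei. Of the 301 nuclei, 79 had at least 5 UMIs of Oxt and Avp together. In 21 of these Oxt was at least 2 times Avp, in 57 Avp was at least 2 times Oxt, and 1 was mixed. The remaining 222 nuclei had fewer than 5 UMIs of both together. The Oxt-leading nuclei held 1090 Oxt UMIs and 11 Avp UMIs, and the Avp-leading nuclei held 34 Oxt and 2473 Avp UMIs, although both peptides had at least 1 UMI in 34 nuclei. The plot of Oxt against Avp UMIs by nucleus shows 2 arms along the axes.

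**Figure D2:**
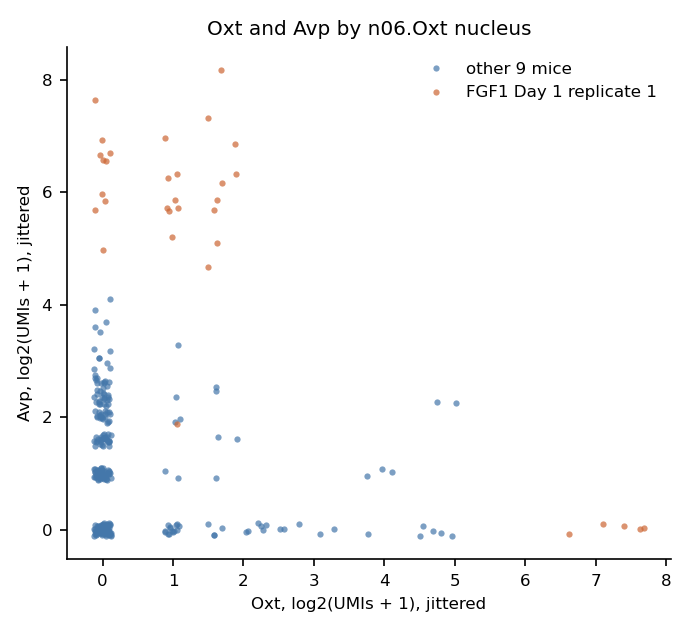
Oxt against Avp UMIs in each of the 301 n06.Oxt nuclei, both as log2(UMIs + 1) with a small random shift so that points do not hide each other. Nuclei of FGF1 Day 1 replicate 1 (orange) form the far ends of both arms, and most nuclei of the other 9 mice (blue) lie at 0 Oxt UMIs.

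The nuclei rich in either peptide came from few mice, so that the classes could not be compared over mice. FGF1 Day 1 replicate 1 supplied 5 of the 21 Oxt-leading and 27 of the 57 Avp-leading nuclei, and vehicle Day 5 replicate 28 supplied 11 and 15. These were the only 2 mice with 5 or more nuclei of both classes, and no test was run. With counting intervals alone (95%, exact Poisson, on CPM computed without Oxt and Avp), Cdh9 was at 142 (70.8 to 254) in Oxt-leading and 479 (386 to 586) in Avp-leading nuclei. Foxp1, a transcription factor, was at 400 (272 to 567) in Oxt-leading and 165 (113 to 233) in Avp-leading nuclei. Pcsk1 was at 297 (188 to 445) and 160 (108 to 227). Pdyn had 0 UMIs in Oxt-leading nuclei, an interval up to 47.6, and was at 61.8 (31.9 to 108) in Avp-leading nuclei. Sim1 was at 477 (336 to 657) and 365 (285 to 461), and Caprin2 at 658 (490 to 864) and 988 (854 to 1139). The 222 nuclei low in both peptides kept the other leading genes, with Caprin2 at 916 (853 to 983), Sim1 at 499 (452 to 549) and Cdh9 at 508 (461 to 559).

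Most of the Avp in n06.Oxt nuclei came from 1 mouse. In FGF1 Day 1 replicate 1 Avp reached 25004 CPM and Oxt 9346. That mouse held 82.4% of the Avp UMIs and 71.8% of the Oxt UMIs of all n06.Oxt nuclei. Its Oxt was concentrated further, since 5 nuclei held 69.3% of all Oxt UMIs, the highest having 207. In the same mouse both RNAs were also high outside n06.Oxt nuclei, at 301 CPM for Oxt and 232 for Avp over all other nuclei, against 1.48 to 73.3 and 1.14 to 29.5 in the other 9 mice. How far the level in n06.Oxt nuclei and that in free RNA depend on each other was not tested.

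Avp was lower in every other FGF1 mouse than in any vehicle mouse, and this order was not confined to n06.Oxt nuclei. Over all other nuclei Avp was at 1.14 to 3.39 CPM in those 4 FGF1 mice and at 6.41 to 29.5 in vehicle mice. In n06.Oxt nuclei Avp was at 25004, 242 and 111 CPM in FGF1 mice and at 551, 556 and 675 in vehicle mice at Day 1. At Day 5 it was at 97.3 and 141 in FGF1 mice and at 852 and 328 in vehicle mice. Over both days the mean log2 difference, FGF1 minus vehicle, was -0.80 (exact two-sided permutation test within days, p = 0.633, 5 against 5 mice). Without FGF1 Day 1 replicate 1 it was -2.004 (exact permutation p = 0.0167, 4 against 5 mice, the smallest p the 60 arrangements allow). Leaving that mouse out was chosen after its values were seen, and how many of all genes keep such an order without it was not counted. The share of n06.Oxt nuclei with an Avp UMI was also lower in those 4 FGF1 mice than in any vehicle mouse, while FGF1 Day 1 replicate 1 lay within the vehicle range. It was 84.8%, 59.5% and 14.3% in FGF1 mice and 68.8%, 78.6% and 85.7% in vehicle mice at Day 1, and 29.2% and 31.0% in FGF1 mice and 76.0% and 76.9% in vehicle mice at Day 5. With each nucleus thinned to 2000 UMIs, which left 271 of 301 nuclei, the Day 1 shares were 81.8%, 32.4% and 14.3% in FGF1 mice and 53.1%, 66.7% and 57.1% in vehicle mice, so that replicate 1 was above every vehicle mouse. The thinned Day 5 shares were 20.8% and 7.41% in FGF1 mice and 63.0% and 30.8% in vehicle mice, the last of which lay below the 32.4% of FGF1 Day 1 replicate 2. Among other neurons the share with an Avp UMI, without thinning, was 0.406% to 0.907% in the same 4 FGF1 mice and 1.38% to 4.52% in vehicle mice. In FGF1 Day 1 replicate 1 it was 17.0%. The part of free RNA in these shares was not tested.

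Oxt showed no such order. It was at 9346, 114 and 223 CPM in FGF1 mice and at 141, 61.1 and 146 in vehicle mice at Day 1. At Day 5 it was at 119 and 9.41 in FGF1 mice and at 1247 and 128 in vehicle mice. The groups overlapped at Day 1. At Day 5 the higher FGF1 mouse and the lower vehicle mouse were 119 and 128, on 11 and 9 UMIs, and came from different batches. Within the batches of Day 5 Oxt was 10.5-fold and 13.7-fold higher in the vehicle mouse, on 246 against 11 and 9 against 1 UMIs. Over all other nuclei Oxt was also higher in the vehicle mouse of each pair, at 73.3 against 1.59 and 7.92 against 1.48 CPM. In n06.Oxt nuclei the mean log2 difference over both days was -0.50 (exact permutation p = 0.917, 5 against 5 mice). It was -1.48 without FGF1 Day 1 replicate 1 (exact permutation p = 0.483, 4 against 5 mice), and its sign turned when FGF1 Day 1 replicate 2, FGF1 Day 5 replicate 45 or vehicle Day 5 replicate 28 was left out, to 0.11, 0.38 and 0.32.

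**Figure D3:**
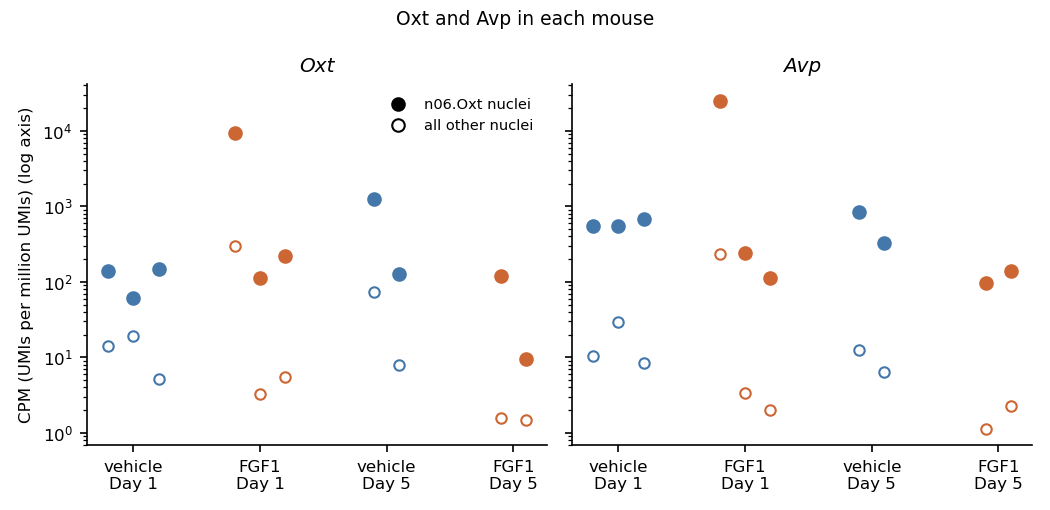
Oxt (left) and Avp (right) in each mouse as CPM on a log axis, in n06.Oxt nuclei (filled) and in all other nuclei of the same mouse (open), FGF1 mice in orange and vehicle mice in blue. The FGF1 Day 1 mouse at the top of both panels is replicate 1. For Avp in n06.Oxt nuclei the other 4 FGF1 mice (97.3 to 242) lie below the 5 vehicle mice (328 to 852), and the order is the same in all other nuclei.

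The share of n06.Oxt nuclei among all nuclei was lower after FGF1. At Day 1 it was 0.664%, 1.46% and 0.628% in FGF1 mice and 2.58%, 1.86% and 1.94% in vehicle mice. At Day 5 it was 1.08% and 0.728% in FGF1 mice and 1.57% and 2.20% in vehicle mice. No FGF1 mouse reached the lowest vehicle mouse, and the FGF1 mouse was lower in 5 of 5 batches. Of the 30 labels with at least 50 nuclei, 4 were lower in 5 of 5 batches, n06.Oxt included. The 30 also count 660 nuclei that the authors marked as filtered out and 11986 neuron nuclei mapped to no type. Both stay among all nuclei in the share. The difference over both days was -1.09 percentage points (exact permutation test within days, p = 0.0167, 5 against 5 mice). Within a day the test cannot go below 0.1 at Day 1 and 0.333 at Day 5, and it gave those values. It exchanged mice across the batches of a day. Exchange within batches, which allows too few arrangements for a p below 0.05, was not run. Among these 30 labels, the same test gave an unadjusted p under 0.05 for 3 (10%) and no overlap between treatments for 2 (6.67%), n06.Oxt and n16.Rgs16/Vip. The adjusted p for n06.Oxt was 0.25 (exact permutation test, Benjamini-Hochberg over the 30). As a share of neuron nuclei the difference was -1.45 percentage points (exact permutation p = 0.0167, 5 against 5 mice). For all 400 nuclei projected to n06.Oxt at any confidence it was -1.50 percentage points (exact permutation p = 0.0167, 5 against 5 mice).

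A share of nuclei also moves with how many nuclei of other types a library holds and with what was dissected, and these cannot be told apart here. FGF1 mice gave 1115 to 5768 nuclei of all types and vehicle mice 591 to 3182. The median UMI number per n06.Oxt nucleus differed by -934 between FGF1 and vehicle mice (exact permutation p = 0.167, 5 against 5 mice), and its part in the share was not tested.

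**Figure D4:**
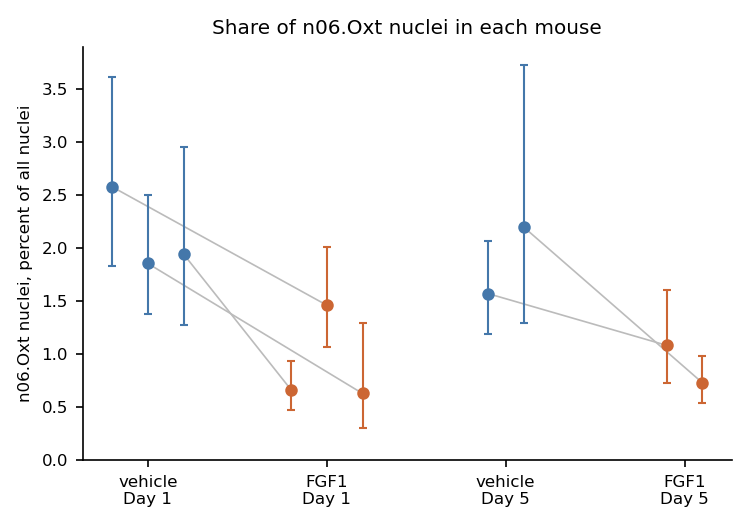
Share of n06.Oxt nuclei among all nuclei of each mouse in percent, with 95% Wilson intervals that cover counting error only, FGF1 mice in orange and vehicle mice in blue. Grey lines join the FGF1 and the vehicle mouse of 1 batch, and all 5 lines fall from vehicle to FGF1.

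At Day 1 the levels of single genes in n06.Oxt nuclei were compared between FGF1 and vehicle mice. The fit used mice with at least 10 n06.Oxt nuclei, which left 2 FGF1 against 3 vehicle mice because FGF1 replicate 3 had 7. By edgeR's quasi-likelihood test with Benjamini-Hochberg adjustment 1 gene was called of 3478 tested, 0.0288% of them, while 169 (4.86%) had an unadjusted p under 0.05. The call was lost without any 1 of the vehicle mice. It was made without either FGF1 mouse, but then 1 FGF1 mouse was left, whose spread is assumed to be that of the vehicle mice, and this shows nothing of stability. Errors of log2 differences are standard errors.

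**Figure D5:**
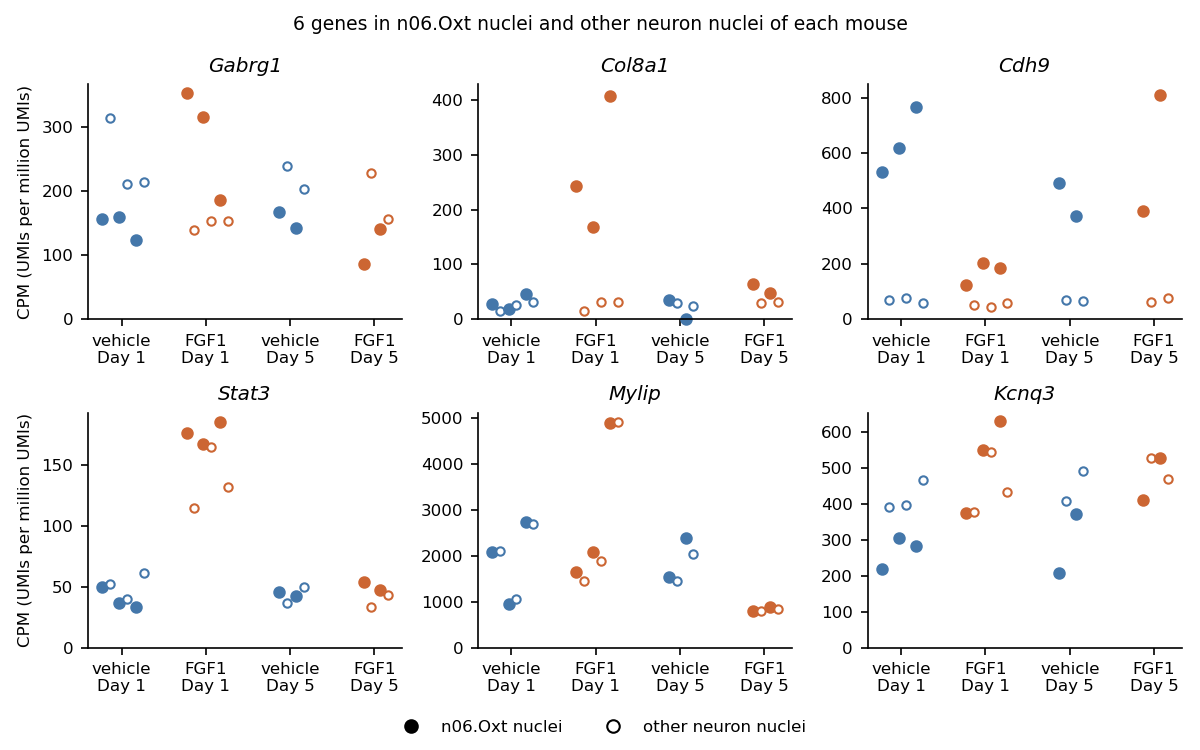
Level of 6 genes in each mouse as CPM, in n06.Oxt nuclei (filled) and other neuron nuclei (open) of the same mouse, FGF1 mice in orange and vehicle mice in blue. At Day 1 Gabrg1, Col8a1 and Stat3 are higher in the n06.Oxt nuclei of all 3 FGF1 mice and Cdh9 is lower, while Gabrg1 is lower in the other neurons of the FGF1 mice. Mylip follows the other neurons of each mouse, and Kcnq3 is higher in FGF1 mice on both days.

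The leading named genes of Day 1 did not pass the test but took the same side in the mouse that the fit left out. Col8a1, a short-chain collagen, was at 243, 168 and 408 CPM in FGF1 mice and at 28.3, 18.3 and 45.0 in vehicle mice (log2 2.79 ± 0.52, edgeR adjusted p = 0.0718). Cdh9, one of the genes that mark n06.Oxt nuclei, was at 121, 201 and 186 in FGF1 mice and at 530, 617 and 765 in vehicle mice (log2 -1.94 ± 0.38, edgeR adjusted p = 0.0805). Sema6d, a transmembrane guidance molecule, was at 585, 812 and 891 in FGF1 mice and at 226, 189 and 281 in vehicle mice (log2 1.61 ± 0.33, edgeR adjusted p = 0.127). Stat3, which carries signals of cytokine and leptin receptors to the nucleus, was at 177, 168 and 186 in FGF1 mice and at 49.5, 36.7 and 33.7 in vehicle mice (log2 2.05 ± 0.47, edgeR adjusted p = 0.223). Sema6d was also at 233, 316 and 289 in the other neurons of the FGF1 mice and at 145, 116 and 199 in those of the vehicle mice. Stat3 was at 115, 165 and 132 in the other neurons of the FGF1 mice and at 52.0, 40.1 and 61.2 in those of the vehicle mice. Zmym1 had a log2 difference of 3.12 ± 0.67 (edgeR adjusted p = 0.223), with 397 CPM in FGF1 replicate 1 and 80.6 and 111 in the other 2 FGF1 mice. In other neurons Zmym1 was at 401, 154 and 277 in FGF1 mice and at 39.7, 58.0 and 39.3 in vehicle mice. For Sema6d, Stat3 and Zmym1 the other neurons thus went the same way, and how many of all genes did so there was not counted. The filter on low counts asks for enough UMIs in as many mice as the smaller group has, here 2. Col8a1, Stat3 and Zmym1 reached at most 45.0, 49.5 and 30.5 CPM in vehicle mice, on few UMIs. They passed that filter through the FGF1 mice, so being higher there is part of how they entered the fit.

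The 5 higher and 5 lower genes with the smallest p were compared with FGF1 replicate 3. Of 5 that were higher in the fit, replicate 3 was above all vehicle mice for 5, on 3 to 24 UMIs each. Of 5 that were lower (Cdh9, Asph, Gm28905, Npat and Gm26917), it was below all vehicle mice for 5, on 1 to 5 UMIs each. Across all genes in which the 2 fitted FGF1 mice did not overlap the vehicle mice, 653 of 3478 (18.8%; 9.29% higher and 9.49% lower), replicate 3 lay beyond the vehicle mice on the same side for 60.0%. With replicate 3 in the fit, at a minimum of 5 nuclei, 4 genes were called by edgeR, among them Col8a1, Sema6d and Cdh9.

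Oxt and Avp rested on 1 mouse in the Day 1 fit. Their log2 differences were 5.39 for Oxt and 4.43 for Avp (edgeR adjusted p = 0.994 for both). Without FGF1 replicate 1 they were 0.02 for Oxt and -1.28 for Avp. With the batch as a block, an alternative chosen after the data were seen, Oxt was called at 3.09 (edgeR adjusted p = 0.0235), as was Zmym1. That fit has nearly as many terms as mice, so its p rests on little. With FGF1 replicate 3 also in the blocked fit neither was called. Without FGF1 replicate 2, which left that mouse alone in its group, 37 genes were called, Oxt and Avp among them. Ebf3 was at 11.0, 47.0 and 0 CPM in FGF1 mice and at 77.8, 104 and 135 in vehicle mice (log2 -1.65 ± 0.59, edgeR adjusted p = 0.904). Caprin2, Sim1 and Pou3f2 overlapped between treatments at Day 1, with log2 values of 0.38, 0.15 and -0.47.

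The gene lists at Day 1 are given beside all 3478 genes, which had a median log2 difference of -0.02 and of which 2.88% were higher and 1.98% lower at an unadjusted p under 0.05. Among 24 ionotropic glutamate and GABA receptors tested, 0 were called and 2 had an unadjusted p under 0.05 by edgeR, both higher: Grin2a, an NMDA receptor subunit, at log2 1.36, and Gabrg1, a GABA receptor subunit, at 1.17. The potassium channels had 19 tested and 0 called, with Kcnq3 at log2 0.79 (edgeR adjusted p = 0.943). Of 14 genes of prohormone processing and dense-core granules, 0 were called and Syt4, a synaptotagmin of dense-core granules, was at 0.98 (edgeR adjusted p = 0.943). Of 5 neuropeptides tested beside Oxt and Avp, Gal was at 1.09 (edgeR adjusted p = 0.992) and 0 were called. Immediate early genes and glucocorticoid-responsive genes had 0 members above the filter on low counts. Of 6 genes of FGF receptors and MAPK feedback, 0 were called or reached p 0.05 by edgeR, at a median of -0.28. The 11 genes of endoplasmic reticulum folding had 0 called and a median of 0.22. Of 69 ribosomal protein genes, 60 had estimates above 0 at a median of 0.47 and 0 were called by edgeR, and they moved with the 2.13% mitochondrial and ribosomal UMIs of FGF1 replicate 1, whose part was not tested.

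At Day 1, 16 of 13701 genes (0.117%) differed in their FGF1 effect between n06.Oxt nuclei and other neurons by edgeR, 9 higher (0.0657%) and 7 lower (0.0511%) in n06.Oxt nuclei, and 586 (4.28%) had an unadjusted p under 0.05. Gabrg1 was at 353, 316 and 186 CPM in n06.Oxt nuclei of FGF1 mice and at 156, 159 and 124 in vehicle mice, while in other neurons it was at 139, 152 and 154 in FGF1 mice and at 313, 212 and 214 in vehicle mice. The treatments did not overlap in either set of nuclei, in opposite directions. In n06.Oxt nuclei the 2 fitted FGF1 mice did not overlap the vehicle mice for 18.8% of 3478 genes. In other neurons that share was not counted. The other neurons are 1 sum over all 19115 other neuron nuclei, of which 11986 were mapped to no type. The shares of the neuron types in that sum also differed between mice. The part of that mix in the differences given here was not tested. In FGF1 replicate 3, which the fit did not use, 1 nucleus held 80.0% of the 5 Gabrg1 UMIs. The difference of Gabrg1 was 1.84 ± 0.30 on the log2 scale (edgeR, adjusted p = 6.8e-06). That fit has many terms for the sums of 2 FGF1 and 3 vehicle mice, so its p rests on little. It gave Oxt the same adjusted p, although the Day 1 level of Oxt rested on 1 mouse. In n06.Oxt nuclei alone Gabrg1 was not called. Its difference ranged from 1.68 to 2.12 with 1 mouse left out, where leaving out an FGF1 mouse leaves 1 whose spread is assumed to be that of the others. Sgip1, a regulator of endocytosis, was at 1512, 1350 and 1967 in n06.Oxt nuclei of FGF1 mice and at 742, 666 and 686 in vehicle mice, and at 511 to 641 in the other neurons of all 6 mice (difference 1.05 ± 0.21, edgeR adjusted p = 0.00138). In FGF1 replicate 3, again outside the fit, 1 of 7 nuclei held 67.9% of the 53 Sgip1 UMIs, so that its level rests on that nucleus. The antisense gene Gm12709 overlaps Sgip1 on the other strand and was called in the same direction, and whether the 2 are independent was not tested. Col8a1 differed by 2.65, Gadd45g by 2.99 and Sgcz by 0.89, all higher in n06.Oxt nuclei. Gadd45g had 43 UMIs in the n06.Oxt nuclei of Day 1. It did not pass the filter on low counts in the fit of those nuclei alone, and entered here beside the sums of other neurons. Cdh9 differed by -1.40, Ebf3 by -2.57, Asph by -2.32, Clstn2 by -1.72, Nwd2 by -1.45, Dcc by -0.88 and Galntl6 by -0.87. Oxt (1.91) and Avp (1.44) were also called. Of the 16, Gabrg1 and Sgip1 were called under all 7 alternatives, 2 of which hold 1 FGF1 mouse and are no check of stability, and 14 were lost under at least 1. Col8a1 was not called without FGF1 replicate 1 (2.09, edgeR adjusted p = 0.45) or without vehicle replicate 2 (2.31, edgeR adjusted p = 0.0913), and Ebf3, Asph and Gadd45g were lost without the same mice. Neither Oxt nor Avp was called without FGF1 replicate 1 (1.93 and 0.54, edgeR adjusted p = 0.898 and 0.957) or without vehicle replicate 2 (1.40 and 1.11, edgeR adjusted p = 0.112 and 0.252). Cdh9 was not called without FGF1 replicate 1 (-0.99, edgeR adjusted p = 0.763). With only the genes tested in n06.Oxt nuclei 12 were called, of which 10 were among the 16, and without FGF1 replicate 1 there were 7, of which 4 were, and without vehicle replicate 2 there were 7, all among the 16.

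At Day 5, edgeR called Avp and Mylip lower in n06.Oxt nuclei after FGF1 and called 0 genes higher, while DESeq2 called 0 genes. The 2 were 0.103% of 1950 genes tested, of which 107 (5.49%) had an unadjusted p under 0.05. Avp was -2.40 ± 0.38 on the log2 scale (SE, edgeR quasi-likelihood test, adjusted p = 0.000201), at 97.3 and 141 CPM in FGF1 mice and 852 and 328 in vehicle mice, on 9, 15, 168 and 23 UMIs. By DESeq2 its adjusted p was 0.0652, and without vehicle replicate 28 the log2 value was -1.50 (edgeR adjusted p = 0.413). In other neuron nuclei Avp was at 1.19 and 2.42 in FGF1 mice and 8.94 and 3.07 in vehicle mice, a log2 difference of -1.75 (edgeR adjusted p = 0.481). The difference between n06.Oxt nuclei and other neurons was -0.69 ± 0.56 (edgeR adjusted p = 1).

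Mylip (chr13:45389742-45412022, plus strand) encodes a ubiquitin ligase that lowers the LDL receptor. It was at 790 and 875 CPM in FGF1 mice and at 1546 and 2383 in vehicle mice of Day 5 (log2 -1.26 ± 0.26, edgeR adjusted p = 0.00415). Mylip had nearly the same level in n06.Oxt nuclei and in other neurons of each mouse. In other neurons of the same 4 mice it was at 793, 835, 1443 and 2032, and in all 10 mice the ratio of n06.Oxt nuclei to other neurons lay between 0.903 and 1.17 while the level in other neurons ranged from 793 to 4911. By DESeq2 its adjusted p in n06.Oxt nuclei was 0.12, and without vehicle replicate 38 the log2 value was -0.93 (edgeR adjusted p = 0.624). Its log2 difference in other neurons was -0.97, and the 2 effects differed by -0.18 ± 0.24 (edgeR adjusted p = 1). Of the 12322 genes in which the Day 5 effects were compared edgeR called 0, with 406 (3.29%) at an unadjusted p under 0.05. In other neurons alone it called 0 genes at either day, with 1251 (7.94%) at Day 1 and 1608 (10.1%) at Day 5 at an unadjusted p under 0.05. Gm17660 and Znhit1, which were lower at log2 -1.05 and -0.95 and did not pass the test (edgeR adjusted p = 0.209 and 0.343), followed other neurons in the same way, at ratios of 0.761 to 1.10 and 0.810 to 1.10.

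Other genes of Day 5 did not pass the test. Sim1 was at 671 and 555 CPM in FGF1 mice and at 360 and 285 in vehicle mice (log2 0.85 ± 0.30, edgeR adjusted p = 0.593). The growth hormone receptor gene Ghr was at 746 and 292 in FGF1 mice and at 233 and 257 in vehicle mice (log2 1.05, edgeR adjusted p = 0.593), so that 1 mouse carried its size. The glutamate receptor genes Grin1 and Grik1 were at log2 -1.31 and -1.55 (edgeR adjusted p = 0.472 and 0.507). Grin1 was at 75.7 and 160 in FGF1 mice and at 289 and 300 in vehicle mice, and Grik1 at 43.3 and 75.2 against 193 and 143. Oxt was at log2 -3.64 ± 1.78 (edgeR adjusted p = 0.953). With the batch as a block Oxt was called at -3.41 (edgeR adjusted p = 6.13e-11). That fit has nearly as many terms as mice, and FGF1 replicate 45 had 1 Oxt UMI, so its p rests on little. Without vehicle replicate 38, which left 1 vehicle mouse, the log2 value of Oxt was -4.37. With 2 mice per group, 34.6% of all genes tested did not overlap between treatments.

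The lists at Day 5 held 1 called member, Avp, of the 2 neurohypophysial peptides. Over all 1950 genes 51 (2.62%) were higher and 56 (2.87%) lower at an unadjusted p under 0.05. Of 17 potassium channels tested 0 were called and 4 had an unadjusted p under 0.05 by edgeR, all higher, among them Kcnq3 at log2 0.77, Kcnma1 at 0.59 and Kcnd2 at 0.45. The median of the 17 was 0.16, beside 0.01 over all genes. Of 16 sodium, calcium and other cation channels 3 had p under 0.05 by edgeR, all lower, and 0 were called, with Scn8a at -0.95 and Cacna1d at -0.84. Of 11 genes in the list of prohormone processing and dense-core granules 3 had p under 0.05 by edgeR, all higher, and 0 were called. They were Scg2 at 0.93, Ptprn at 0.88 and Caprin2, an RNA-binding protein placed in that list, at 0.61. Atf6, a sensor of endoplasmic reticulum stress, was at -1.01 (edgeR adjusted p = 0.871), and the 4 genes of that list had 0 called.

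Kcnq3 and Caprin2, picked after their values were seen, were higher in FGF1 mice in 5 of 5 batches, as were 88 of 1888 genes tested (4.66%), and 59 (3.12%) were lower in 5 of 5. Caprin2 overlapped between treatments, since the lowest FGF1 mouse was at 980 CPM and the highest vehicle mouse at 1020. Kcnq3, a subunit of the potassium channel that carries the M-current, was at 375, 551 and 631 CPM in FGF1 mice and at 219, 305 and 281 in vehicle mice at Day 1. At Day 5 it was at 411 and 527 in FGF1 mice and at 208 and 371 in vehicle mice, so that the lowest FGF1 mouse (375) and the highest vehicle mouse (371) nearly met. Over both days 1.48% of the genes tested did not overlap between treatments, and 0.689% did so with FGF1 higher. In other neurons the 2 treatments overlapped, between 378 and 545. In a fit of both days with the batch as a block, chosen after the data were seen, Kcnq3 was 0.83 ± 0.22 and Caprin2 0.59 ± 0.18 higher on the log2 scale (SE, edgeR adjusted p = 0.476 and 0.628). That fit called 0 of 1888 genes by edgeR, with 115 (6.09%) at an unadjusted p under 0.05, and DESeq2 called 2, Gm26917 among them. Kcnq3 belongs to a list of 5 genes that the study picked from Agrp neurons of these mice, so the list is not independent evidence of its direction.

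The effect of FGF1 at Day 5 minus that at Day 1 was tested directly, and edgeR called 0 of 2988 genes, with 103 (3.45%) at an unadjusted p under 0.05, while DESeq2 called 0. Oxt and Avp were at -8.98 and -6.82 on the log2 scale, both at an unadjusted p under 0.05 by edgeR. In the Day 1 fit both rested on FGF1 replicate 1. Cdh9 was 2.34 ± 0.51 on the log2 scale (SE, edgeR adjusted p = 0.312). Cdh9 was at 389 and 809 CPM in FGF1 mice and at 492 and 371 in vehicle mice at Day 5, so that the treatments overlapped. Without FGF1 Day 1 replicate 2 the test called 19 genes, Cdh9 and Avp among them.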

How the data were processed

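Single-nucleus RNA-seq of the hypothalamus of 10 mice, 1 mouse per library, was used. Per the labels and the study's methods, the authors aligned reads to GRCm38 with introns (Cell Ranger 1.2), removed nuclei with fewer than 400 or more than 4000 genes or over 5% mitochondrial and ribosomal UMIs, integrated batches and projected cell labels with Seurat. The deposited table holds raw UMI counts of 20668 genes in 24965 nuclei, and the count total of each nucleus matched the deposited annotation. The authors deposited the confidence of each projected label as a fraction. Members were chosen by that annotation, and the members and gene lists were chosen with earlier results of these data known. Genes were named in the text when called, or as the 5 higher and 5 lower with the smallest p, or as list members, apart from those said to be chosen later. Some genes that the rule names are not reported here.

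Counts were summed per mouse over n06.Oxt nuclei, leaving out mice with fewer than 10, filtered with filterByExpr, scaled by TMM and tested with edgeR 4.0.16 (quasi-likelihood, R 4.3.3) at a Benjamini-Hochberg adjusted p below 0.05. DESeq2 1.42.0 was an alternative. Differences from other neurons were fitted with the mouse as a block. Levels are CPM, scaled to 1000000 UMIs of the same nuclei. Single values were tested by exact two-sided permutation within days and across batches (scipy 1.17.1, python 3.11.15). Intervals cover counting error only. Totals ranged from 26944 to 197255 UMIs per mouse. On simulated counts the Day 1 fit of 3478 genes recovered 73.7% of genes changed by 2 on the log2 scale and 81.2% of those changed by 3, with 8 false calls in all. The Day 5 fit of 1950 genes recovered 80.0% and 92.7%, with 6. The simulation gave genes of like level the same spread, had no outlying mouse and changed many genes at once. Its shares therefore need not hold for the real counts. Same-numbered Day 1 mice did not deviate together, at correlations of -0.135, -0.166 and 0.150, and neither did mice of the same batch, at -0.265, 0.049 and -0.217.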

Additional observations from a re-analysis of the deposited data

Results flagged for a closer look

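The FGF1 effect at Day 1 differed between n06.Oxt nuclei and the other neuron nuclei of the same mice for 16 genes by edgeR with the mouse as a block, and 7 of them are given here. The difference on the log2 scale, n06.Oxt nuclei minus other neurons, was 1.84 for Gabrg1, 2.65 for Col8a1, 1.91 for Oxt and 1.44 for Avp, and it was -1.40 for Cdh9, -2.57 for Ebf3 and -2.32 for Asph. Of these, Gabrg1 was called under all 7 alternatives, 2 of which hold 1 FGF1 mouse and are no check of stability. The fit has many terms for the sums of 2 FGF1 and 3 vehicle mice, so its p rests on little. FGF1 Day 1 replicate 1 had high Oxt and Avp in n06.Oxt nuclei and outside them. Without that mouse, which left 1 FGF1 mouse, the difference was 1.93 for Oxt and 0.54 for Avp. The part of its high peptide level, and that of the mix of other neuron types, was not tested.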

How the results depend on the processing

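The Day 1 count of 1 called gene was 3 with the batch as a block, 4 at a minimum of 5 nuclei, 8 without a filter on low counts, and 0 to 37 with 1 mouse left out (5 without FGF1 replicate 1, 37 without FGF1 replicate 2 and 0 without each vehicle mouse, with 79, 177 and 116 genes at an unadjusted p under 0.05 by edgeR). The Day 5 count of 2 was 0 by DESeq2 (17 at an unadjusted p under 0.05), 1 with Oxt and Avp left out, 4 with the batch as a block, 4 without the filter, where Avp and not Mylip was kept, and 4 to 11 with 1 mouse left out. Over both days the edgeR count of 0 (115 at an unadjusted p under 0.05) was 2 by DESeq2, 5 without the filter and 0 to 3 with 1 mouse left out. The difference between days was called for 0 to 19 genes and that from other neurons for 7 to 16 with 1 mouse left out. The cause of these shifts was not tested. For the Oxt level the log2 difference turned to 0.11 without FGF1 Day 1 replicate 2, 0.38 without FGF1 Day 5 replicate 45 and 0.32 without vehicle Day 5 replicate 28, over a range of -1.48 to 0.38. For the Avp level it ran from -2.004 without FGF1 Day 1 replicate 1 to -0.054 without replicate 3, and in the Day 1 fit Avp ran from -1.28 without that mouse to 5.37 without replicate 2. The share difference ran from -1.25 to -0.94 percentage points with 1 mouse left out. As the groups do not overlap, leaving out a mouse could not change its direction or bring the unadjusted p above its smallest value, so this is no check of stability.

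With the replicate number as a block, 0 genes were called at Day 1 by edgeR (64 at an unadjusted p under 0.05; DESeq2 without the block called 1). The numbers did not pair the mice, and Day 5 groups share none, so that pairing at Day 5 was by batch alone. The classes of Oxt-leading and Avp-leading nuclei had no test, so its other scaling and DESeq2 were not run. With 7 to 50 nuclei per mouse, low genes could not be tested: 3478 of 20668 genes entered the Day 1 fit and 1950 the Day 5 fit.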
